A study of Mus musculus with 2 samples.

Results

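The mouse mitochondrial genome and its copies on chromosome 1 were examined in RNA of subcutaneous fat. The set held 40 of the 43346 annotated genes in the deposited tables. It was chosen by name: all 37 genes whose symbol starts with mt-, and the pseudogenes Gm29216, Gm10222 and Gm28437. The 37 are 13 protein-coding genes, called mRNAs here, 2 rRNAs and 22 tRNAs. The rule itself uses names only, but it was written with earlier results of these data known, and the 3 pseudogenes are those of highest TPM among 7 such copies on chromosome 1. A single group was sequenced, in 2 libraries that the labels number as biological replicates 1 and 2. Per the labels, the tissue was the subcutaneous fat pad of adult C57BL/6J mice of 8 weeks, taken from littermates of both sexes and pooled; no treatment or engineered allele is named. Both libraries carry the same donor record under separate tissue samples, so their spread may be partly technical. PolyA RNA longer than 200 nt, from which ribosomal RNA had been removed, was read as stranded pairs of 76 nt with ERCC spike-ins, synthetic RNAs of known amount. Estimated counts summed to 54752739 in replicate 1 and to 58687668 in replicate 2.

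Mitochondria keep a small circular genome of their own, transcribed on both strands into long precursors from which tRNAs are cut out, releasing the mRNAs and rRNAs between them. Its mRNAs encode core subunits of the respiratory chain (complexes I, III and IV) and of ATP synthase (complex V); all other subunits come from nuclear genes. Stretches of mitochondrial DNA have also been inserted into nuclear chromosomes over evolution, and such copies can be nearly identical to the mitochondrial genes. In fat, mitochondria serve lipid synthesis and fatty acid oxidation, and in brown and beige adipocytes they produce heat.

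The copies on chromosome 1 lay in a single stretch, chr1:24611535-24616197 on the minus strand (GRCm38, the build also called mm10). Within 10 kb of the 3 copies of the set lay 4 further annotated genes, Gm28439, Gm28438, Gm10925 and Gm28661, each of them a copy of another mitochondrial gene. The 7 copies aligned to 7 mitochondrial mRNAs over 4149 nt, of which 4142 were identical, and 5 of the 7 held no mismatch at all. The sequences below show how little separates pairs within the aligned stretch, where reads can be told apart only by letters that differ. Outside it, 1053 nt of mt-Co1 and 502 nt of mt-Nd4 have no match in their copies. They are from the GRCm38 reference with GENCODE M21 annotation, whose lengths equalled those in the deposited tables for all 44 genes. The first pair is the start of Gm29216 and the matching stretch of mt-Co1, with all 6 mismatches in capitals.
mt-Co1, chrM:6381-6440, plus strand: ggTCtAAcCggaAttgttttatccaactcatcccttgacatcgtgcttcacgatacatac
Gm29216, chr1:24616138-24616197, minus strand: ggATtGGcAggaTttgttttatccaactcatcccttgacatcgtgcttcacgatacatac
Counted from the first nucleotide of mt-Co1, these are T1056A, C1057T, A1059G, A1060G, C1062A and A1066T, with the mitochondrial base first. The rest of the 492 nt of Gm29216 was identical to mt-Co1. The next pair is the start of mt-Nd3 and Gm28438, with their only mismatch, T3C, in capitals.
mt-Nd3, chrM:9459-9518, plus strand: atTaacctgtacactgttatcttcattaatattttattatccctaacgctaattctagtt
Gm28438, chr1:24613060-24613119, minus strand: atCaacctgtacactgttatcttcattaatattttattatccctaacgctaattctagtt
Gm10222 and Gm28437 held no mismatch and differed from their mitochondrial genes only in ending earlier. Capitals mark the last bases of mt-Nd4l and mt-Co3 that the annotated copy lacks.
mt-Nd4l, chrM:10114-10173, plus strand: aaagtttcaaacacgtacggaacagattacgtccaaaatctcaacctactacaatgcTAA
Gm10222, chr1:24612407-24612463, minus strand: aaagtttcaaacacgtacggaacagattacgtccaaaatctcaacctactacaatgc
mt-Co3, chrM:9331-9390, plus strand: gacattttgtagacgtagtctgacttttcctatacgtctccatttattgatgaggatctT
Gm28437, chr1:24613189-24613247, minus strand: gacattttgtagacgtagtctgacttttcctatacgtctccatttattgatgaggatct

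Mitochondrial mRNAs were among the most abundant RNAs of both libraries. The 13 mRNAs took 2.99% of all gene counts in replicate 1 and 7.07% in replicate 2. On the TPM scale, a relative abundance that divides counts by the effective length of a gene, they took 6.51% and 15.7% (11.1% ± 6.50, SD, n = 2). All 40 genes of the set together held 3.43% and 8.41% of the counts (5.92% ± 3.53, SD, n = 2), so replicate 2 was the higher library by a wide margin. Of the 40 genes, 18 had counts and the same 18 reached a TPM of 1 in both libraries. The 22 without a count were the tRNAs.

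**Figure D1:**
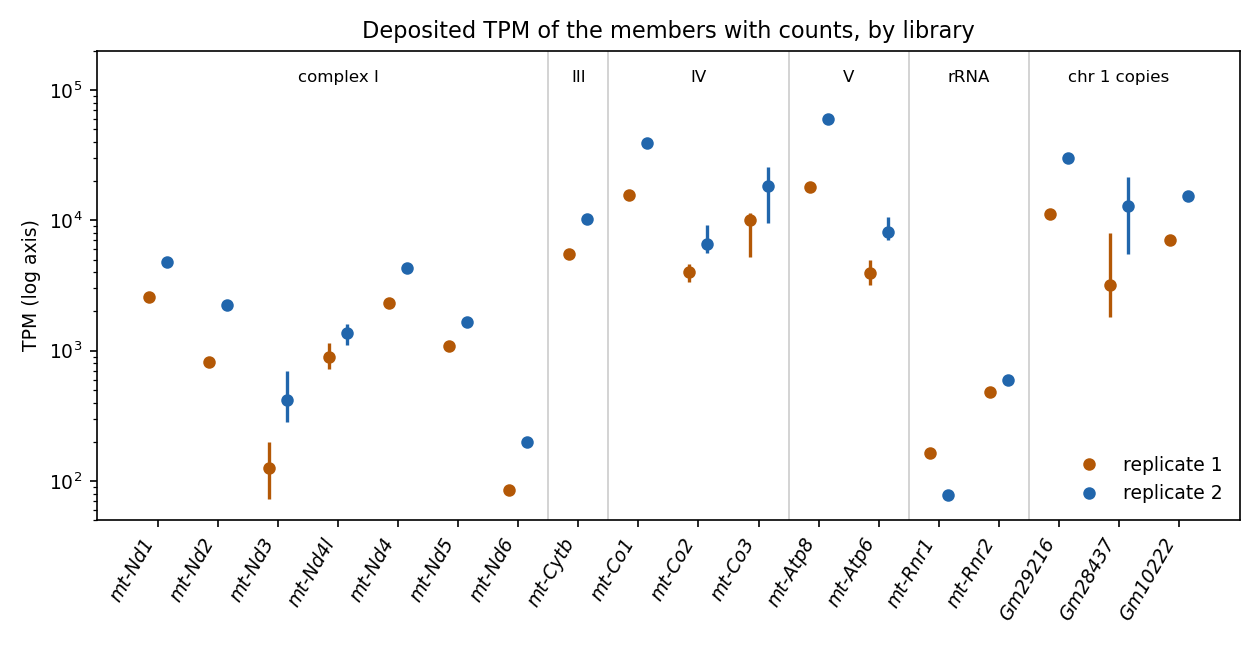
Deposited TPM (log axis) of the 18 genes with counts, for replicate 1 (orange) and replicate 2 (blue); vertical lines are the deposited interval bounds of TPM. All genes but mt-Rnr1 lie higher in replicate 2, and the lines are long for mt-Nd3, mt-Co3 and Gm28437, which share sequence with another gene.

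Complex IV, cytochrome c oxidase, passes electrons to oxygen, and its 3 mitochondrial mRNAs held 66.7% of the mitochondrial mRNA counts in replicate 1 and 71.2% in replicate 2. mt-Co1 (chrM:5328-6872), the catalytic subunit with the heme groups, had 779858 and 2297625 estimated counts and a TPM of 15585 and 39226. It alone took 48.7% and 56.5% of the mRNA counts, and it ranked 1 among all genes in counts per kb of annotated length in both libraries. mt-Co3 (chrM:8607-9390) followed at a TPM of 10140 and 18497. mt-Co2 (chrM:7013-7696), which receives electrons from cytochrome c, stood at a TPM of 4030 and 6562. The order mt-Co1, mt-Co3, mt-Co2 was the same in both libraries, and the deposited TPM bounds of these neighbours did not overlap within a library, although those of mt-Co3 were wide (5217 to 11409 in replicate 1 and 9602 to 25600 in replicate 2).

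mt-Cytb (chrM:14145-15288), the only mitochondrial subunit of complex III, stood at a TPM of 5543 and 10197. It came after mt-Co1 and mt-Co3 in counts per kb in both libraries and held 12.1% and 10.2% of the mitochondrial mRNA counts.

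Complex I, NADH dehydrogenase, takes 7 of its subunits from mitochondrial mRNAs, and these held 16.8% and 14.3% of the mRNA counts. mt-Nd1 (chrM:2751-3707) had a TPM of 2569 and 4758, and mt-Nd4 (chrM:10167-11544) a TPM of 2302 and 4299. In both libraries these neighbours in the order lay closer to each other than either did to its own value in the other library. mt-Nd5 (chrM:11742-13565), the largest of the 7 at 1824 nt, had a TPM of 1089 and 1652. mt-Nd2 (chrM:3914-4951) had a TPM of 822 and 2233, below mt-Nd5 in replicate 1 and above it in replicate 2. Their order therefore did not hold between the libraries. mt-Nd4l (chrM:9877-10173) had a TPM of 899 and 1365, and mt-Nd3 (chrM:9459-9806) a TPM of 126 and 419. Both are short and both have a copy on chromosome 1 that received most of the pair's counts, as described with the copies. mt-Nd6 (chrM:13552-14070), the only mRNA on the minus strand, was the lowest of the 13 in TPM in both libraries, at 85 and 198.

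mt-Nd6 was the only gene with counts on the minus strand. That strand carries mt-Nd6 and 8 tRNAs, and these 9 genes held 974 and 2623 estimated counts, all in mt-Nd6. The 28 genes of the plus strand, 14 of them tRNAs without counts, held 1629696 and 4100890. By counts per kb in replicate 1, mt-Nd3 of the plus strand was lower still, at 1817 against 1877 for mt-Nd6. As a share of the mitochondrial mRNA counts, mt-Nd6 was nearly equal in the libraries, at 0.0608% and 0.0645%. Its last 14 nt are antisense to the end of mt-Nd5 and are shown in capitals. A read of 76 nt that covers them reaches beyond them, so position as well as strand can tell these genes apart.
mt-Nd6, chrM:13552-13611, minus strand: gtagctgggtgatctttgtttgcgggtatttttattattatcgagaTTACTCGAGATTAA
The libraries were stranded per the labels, and whether the counting used strand was not given in the sources used here.

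Complex V mRNAs gave opposite pictures on different scales. mt-Atp6 (chrM:7927-8607), the proton channel subunit of ATP synthase, had a TPM of 3957 and 8162. mt-Atp8 (chrM:7766-7969), a small subunit of the same enzyme, had a TPM of 17962 and 59487, the highest of the mitochondrial genes in both libraries. Yet mt-Atp8 held only 1410 and 5340 counts, 0.0881% and 0.131% of the mitochondrial mRNA counts. By TPM it ranked 2 and 1 among all genes, by counts per kb of annotated length 593 and 136, and by counts 7087 and 1855. Its effective length, the number of positions at which a fragment of the library could start, was 2.09 nt in replicate 1 and 2.03 nt in replicate 2, for a gene of 204 nt. For longer genes the effective length was 214.5 and 219.2 nt under the annotated length. Among the 8346 and 7190 genes with at least 1000 counts, none had a smaller effective length than mt-Atp8. Without mt-Atp8 the remaining 12 mRNAs took 4.71% and 9.76% of TPM. The gene is printed whole, with the 43 nt that it shares with mt-Atp6 on the same strand in capitals. A fragment that covers those 43 nt overlaps both genes. Its reads of 76 nt are longer than that stretch, so bases outside it can tell the genes apart.
mt-Atp8, chrM:7766-7969, plus strand: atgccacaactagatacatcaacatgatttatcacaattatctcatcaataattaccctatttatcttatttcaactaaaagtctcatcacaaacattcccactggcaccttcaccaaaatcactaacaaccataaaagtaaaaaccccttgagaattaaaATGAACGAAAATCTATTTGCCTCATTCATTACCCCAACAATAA

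**Figure D2:**
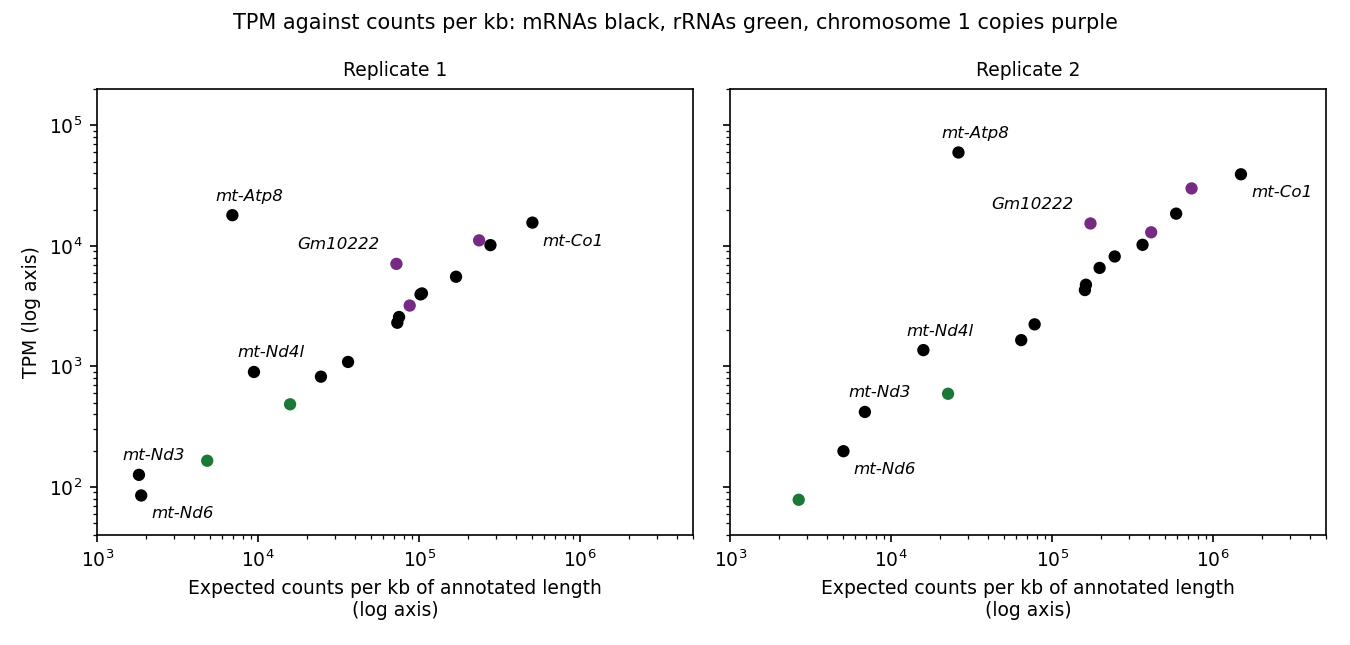
TPM against expected counts per kb of annotated length (both log axes) in replicate 1 (left) and replicate 2 (right); black points are mRNAs, green points rRNAs and purple points copies on chromosome 1. mt-Atp8 stands far above the other genes, at a TPM of 17962 and 59487 for 6912 and 26176 counts per kb, while mt-Co1 is highest in counts per kb.

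The rRNAs were low, in libraries from which ribosomal RNA had been removed. mt-Rnr1 (chrM:70-1024), the RNA of the small ribosomal subunit, had 4606 counts in replicate 1 and 2545 in replicate 2, a TPM of 165 and 78.3. mt-Rnr2 (chrM:1094-2675), the RNA of the large subunit, had 24966 and 35692 counts, a TPM of 485 and 593. Together they held 0.0552% and 0.0665% of the gene counts. mt-Rnr1 was the only gene with counts in the set that was lower in replicate 2.

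All 22 tRNAs, which decode the mitochondrial mRNAs, were listed at 0 counts in both libraries. A count of 0 allows up to 3 counts by counting error, and it gives no limit in TPM because their effective length was also 0. They are 59 to 75 nt long, shorter than a read of 76 nt and shorter than the RNA selected for the libraries. The shortest and the longest are printed to show the size.
mt-Ts2, chrM:11613-11671, plus strand: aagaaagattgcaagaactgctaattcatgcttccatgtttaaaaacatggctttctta
mt-Tl1, chrM:2676-2750, plus strand: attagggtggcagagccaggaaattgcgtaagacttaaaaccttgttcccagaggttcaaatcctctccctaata
An effective length of 0 was given to 6070 and 6060 genes, of which 17 and 6 had counts. Whether the tRNAs were present in the tissue was not tested.

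The 3 copies of the set, those of highest TPM among the 7, had TPM values within the range of the mitochondrial mRNAs. Gm28439, outside the set, had a TPM of only 0.150 and 0.360. Gm29216 (chr1:24615706-24616197), the copy of the end of mt-Co1, had 115903 and 361131 counts and a TPM of 11104 and 29953, rank 5 and 3 among all genes. Gm28437 (chr1:24613189-24613971), the copy of mt-Co3, had 68338 and 322618 counts and a TPM of 3196 and 12951. Gm10222 (chr1:24612407-24612700), the copy of mt-Nd4l, had 21231 and 50845 counts and a TPM of 7087 and 15334. The 3 copies took 0.383% and 1.28% of all gene counts. They took 11.2% and 15.2% of the counts of the 40 genes, and all 7 copies took 13.8% and 18.4% of the counts of the mitochondrial genes and copies. These counts were divided by the authors' program between sequences that are nearly or wholly identical, so a copy's level is uncertain, and transcription of chromosome 1 cannot be told apart from mitochondrial RNA for the identical stretches.

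How each pair's counts were divided differed widely between pairs of the same identity. Gm29216 received 12.9% and 13.6% of the counts of mt-Co1 and itself. Gm28661 received 25.8% and 40.7% of its pair with mt-Co2, and Gm10925 26.7% and 33.5% of its pair with mt-Atp6. Gm10222, as free of mismatches as these last 2, received 88.4% and 91.5% of its pair with mt-Nd4l. Gm28438, with a single mismatch to mt-Nd3, received 90.7% and 84.8%. Gm28439 matched the first 876 of the 1378 nt of mt-Nd4 without a mismatch and received 0.00375% and 0.00470%, which is 3.78 and 10.3 counts. Copies without a mismatch thus ranged from 0.00470% to 91.5% of their pair in replicate 2.

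The deposited tables also give a posterior mean and a posterior SD of each count, which describe how firmly the program could place the reads. For mt-Co3 the posterior mean was 168335 and 401242 with a posterior SD of 47452 and 138833, that is 28.2% and 34.6% of the mean. For Gm28437 it was 117193 and 382965 with the same SD. Its share of the pair was 23.9% and 41.1% by expected count and 41.0% and 48.8% by posterior mean. The 7 pairs each had equal SDs for both partners and a sum that was the same by either count. The 8 mitochondrial genes with counts that have no annotated copy of their own on chromosome 1, among them mt-Cytb and mt-Nd5, had a posterior SD of 0 in both libraries. They include mt-Atp8, although the 43 nt that it shares with mt-Atp6 also lie in Gm10925. For mt-Co1 and Gm29216, which are told apart by the 6 mismatches and by the part of mt-Co1 outside the copy, the SD was only 385 and 706. Gm10222, which holds no mismatch, also had a small SD, 1.54% and 0.805% of its posterior mean. A wide SD thus did not always go with identity, and a small SD does not show that the division was right.

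**Figure D3:**
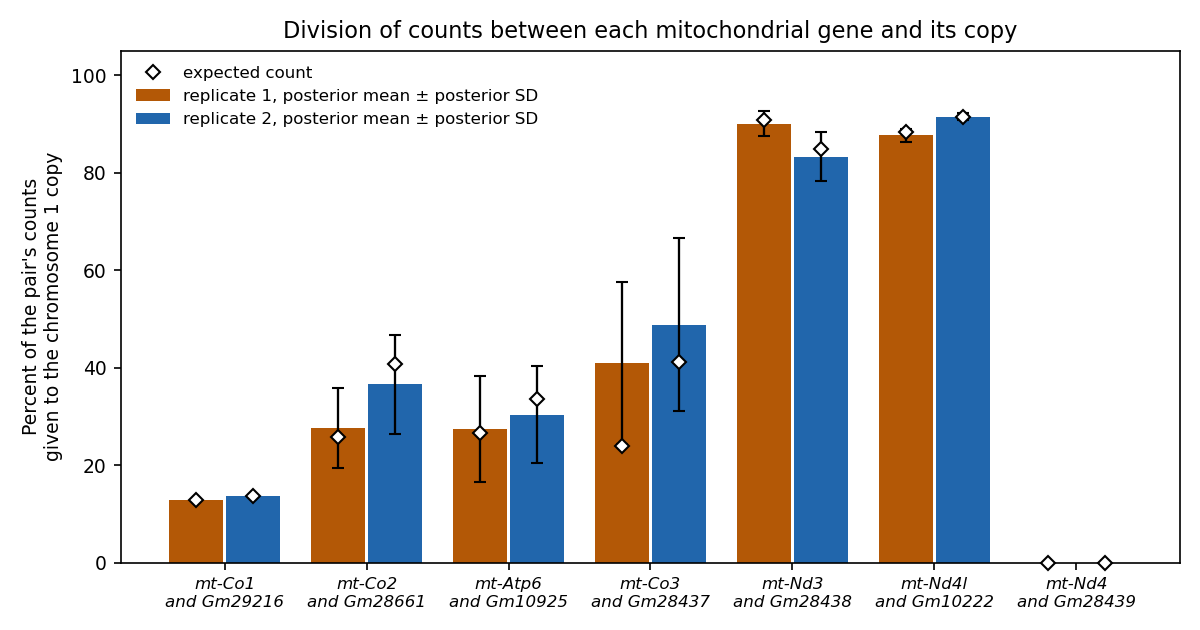
Percent of the counts of each pair that was given to the chromosome 1 copy, in replicate 1 (orange) and replicate 2 (blue); bars are posterior means with posterior SD, diamonds are expected counts. Shares run from under 0.01% for Gm28439 to 91.5% for Gm10222, and the error bars are longest for mt-Co3 and Gm28437.

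The summed count of a pair does not depend on that division, whereas a summed TPM does, since each partner is divided by its own effective length. Counts summed to 895761 and 2658757 for mt-Co1 with Gm29216, and to 285528 and 784207 for mt-Co3 with Gm28437. For mt-Nd4l with Gm10222 the sum was 24026 and 55552, against 2795 and 4707 for mt-Nd4l alone. For mt-Nd3 with Gm28438 it was 6772 and 15679, against 632 and 2389 for mt-Nd3 alone. The summed counts of these short genes were thus several times those of the genes alone. mt-Co2 with Gm28661 summed to 95894 and 227118 counts, and mt-Atp6 with Gm10925 to 94727 and 250567.

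The libraries were compared by the ratio of scaled counts, replicate 2 over replicate 1, with its exact Clopper-Pearson 95% interval. With a single library on each side no test is possible, and the interval covers counting error only. Scaling used TMM factors, which assume that most genes are equal. The term called is used for genes that had a mean scaled count of 100 or more and an interval wholly beyond 2-fold. Among all 13403 genes with that count, 23.1% were called in either direction, 10.6% as higher in replicate 2, and the median log2 ratio was 0.04.

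Of the 18 genes of the set with enough counts, 16 were called higher in replicate 2 and 0 higher in replicate 1, where 12.5% of all genes were called. All 13 mRNAs were among the 16, with a median log2 ratio of 1.54 and ratios from 2.24 to 5.04. The median was 1.54 for complex I, 1.52 for the single mRNA of complex III, 1.5 for complex IV and 2.01 for complex V. These genes share precursors, some also share reads with their copies on chromosome 1, and they are not independent of each other. On the same strand, mt-Atp8 overlaps mt-Atp6 by 43 nt and mt-Nd4l overlaps mt-Nd4 by 7 nt. A different ratio within such a pair therefore need not mean different RNA molecules.

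Counts of mt-Co1, 779858 and 2297625, gave a ratio of 3.92 (interval 3.91 to 3.93). mt-Cytb, with 193773 and 416631 counts, gave 2.86 (2.85 to 2.88). The highest ratios among the mRNAs were those of mt-Atp8, at 5.04 (4.75 to 5.35), and mt-Nd3, at 5.03 (4.61 to 5.50), whose intervals overlap. The lowest was that of mt-Nd4l, at 2.24 (2.14 to 2.35), followed by mt-Nd5 at 2.37 (2.34 to 2.39). The ratios of mt-Nd1, mt-Nd2, mt-Nd5, mt-Nd6 and mt-Cytb, which have no annotated copy on chromosome 1, ran from 2.37 to 4.22. mt-Atp8, at 5.04, also has no copy of its own, but the 43 nt that it shares with mt-Atp6 lie in Gm10925. The rRNAs were not called, with mt-Rnr1 at 0.736 (0.701 to 0.772) and mt-Rnr2 at 1.90 (1.87 to 1.93).

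All 3 copies were called, Gm29216 at 4.15 (4.12 to 4.18), Gm28437 at 6.29 (6.24 to 6.34) and Gm10222 at 3.19 (3.14 to 3.24). By expected count, Gm28437 had the highest ratio of the 40 genes, while its partner mt-Co3 stood at 2.83 (2.82 to 2.84). By posterior mean count, Gm28437 stood at 4.35 and mt-Co3 at 3.17, and mt-Nd3 was highest at 5.16. The rank of Gm28437 thus depended on how the program divided the pair's counts. When each mitochondrial gene and its copy were added, the 7 ratios narrowed to 2.91 to 3.95, with mt-Co1 at 3.95, mt-Co3 at 3.66 and mt-Nd3 and mt-Nd4l both at 3.08. The deposited TPM bounds of the libraries overlapped for mt-Co3, mt-Nd4l and Gm28437 and lay apart for the other 15 genes. The bounds were not compared over all genes, so it is unknown whether 15 of 18 is more than usual.

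**Figure D4:**
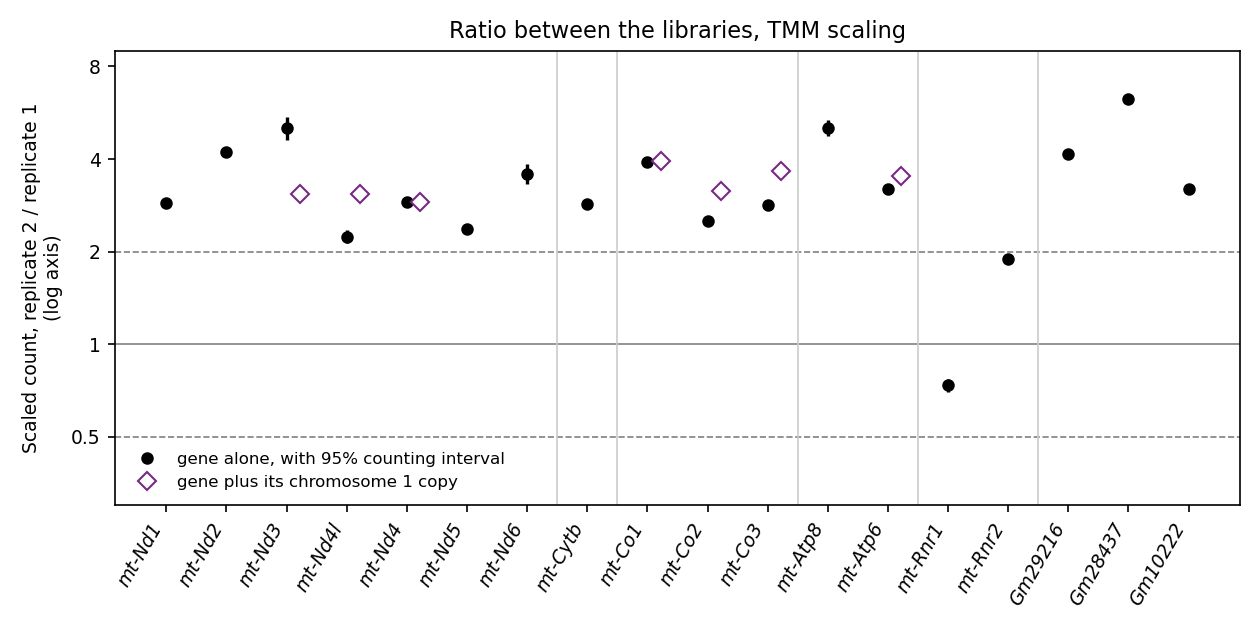
Ratio of TMM-scaled counts, replicate 2 over replicate 1 (log axis), of the 18 genes with counts; points are genes with their 95% counting interval, diamonds the sum of a gene and its chromosome 1 copy, and dashed lines mark 2-fold. The 13 mRNAs lie between 2.24 and 5.04 and mt-Rnr1 lies below 1.

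Scaling moved these values. With the total count of annotated genes in place of TMM, every log2 ratio was 0.51 lower and 10 of the 18 genes remained called, against 4.40% of all genes; with the total count of spike-ins they were 0.46 lower and 13 remained, against 4.88%. All 13 mRNAs and 3 copies stayed above a ratio of 1 in each scaling tried. The 6 whose calls were lost with the total count were mt-Nd1, mt-Nd4l, mt-Nd5, mt-Cytb, mt-Co2 and mt-Co3.

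Markers of several cell types also differed between the libraries, some higher in replicate 2 and others higher in replicate 1. All 8 adipocyte markers, such as Adipoq and Lep, were called higher in replicate 2, with a summed TPM of 18491 and 39257, as were the 4 brown or beige markers (335 and 905), Ucp1 among them, and the 3 endothelial ones (331 and 1051). All 7 glandular epithelium markers were higher in replicate 1 (674 and 13.7), and so were all 5 smooth muscle markers (5238 and 631) and 2 of 4 fibroblast markers (1922 and 896). None of 4 macrophage markers was called (927 and 697). Of the 4 skeletal muscle markers (217 and 138), Myl1 was called higher in replicate 2 (ratio 2.94), Acta1 was not called (0.884), Ckm had too few counts (146 and 17.0) and Myh4 was at 0 in both libraries. The part of the cells' makeup in the mitochondrial ratios was not tested. In such bulk tissue, fewer cells of a type and less RNA per cell cannot be told apart.

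Nuclear genes that serve the mitochondrial genome were read beside it. Among 16 genes of mitochondrial transcription and replication, 13 had enough counts, none was called and the median log2 ratio was 0.14. Of all genes, 23.1% were called in either direction. Polrmt, the mitochondrial RNA polymerase, had a TPM of 55.2 and 39.7 (ratio 1.06), and Polg, the catalytic subunit of the DNA polymerase, 53.5 and 45.5 (1.14). Mterf3, of the termination factor family, had a TPM of 259 and 103 (1.18). It led by TPM only, with 806 and 712 counts against 5658 and 4859 for Polg. The ratios are of scaled counts and not of TPM. Among 35 genes of mitochondrial RNA processing, stability and modification none was called, against the same 23.1% of all genes, with a median of 0.25. Fastk, of a family of mitochondrial RNA-binding proteins, had a TPM of 215 and 187 (1.44), the RNase P subunit Hsd17b10 86.0 and 95.8 (1.73), and the oligoribonuclease Rexo2 85.3 and 82.1 (1.5).

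Of 9 upstream regulators of mitochondrial content, 8 had enough counts and the median log2 ratio was -0.23. Only Pprc1, a coactivator related to PGC-1, was called. It was higher in replicate 1, where 12.5% of all genes were called, so 1 of 8 is no more than that share. Its TPM was 40.2 and 10.4 and its ratio 0.403 (0.382 to 0.424). Esrra, an orphan nuclear receptor, had a TPM of 45.1 and 47.4 (1.72), and the transcription factor Nrf1 31.9 and 14.4 (0.750).

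Nuclear subunits of the same complexes mostly lay above a ratio of 1. Of 71 with enough counts, 11 were called higher in replicate 2, where 10.6% of all genes were, and 0 higher in replicate 1. Of all 71, 70 had a ratio above 1, with a median log2 ratio of 0.82 against 1.54 for the mitochondrial mRNAs. The called members were 2 of 35 in complex I (median 0.80), 2 of 9 in complex III (0.94), 4 of 12 in complex IV (0.87) and 3 of 15 in complex V (0.85). Largest were Cox7a1 at a TPM of 27.0 and 87.0 (ratio 4.88, 4.07 to 5.88) and Cox8b at 124 and 333 (4.06), complex IV isoforms that also stand in the list of brown or beige markers. Ndufs5 of complex I followed at 37.8 and 89.3 (3.65) and Cox7a2 at 118 and 247 (3.23). The most abundant by TPM were Atp5b, the catalytic beta subunit of ATP synthase, at 2649 and 3667 (2.05), Cox6a1 at 1898 and 2297 (1.87) and Uqcr11 at 1893 and 1987 (1.61).

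A contig table on the older build mm9, which pools both libraries, divides the genome into transcribed stretches, and 6 of its 747944 contigs lay on the mitochondrial chromosome. They held 3.05% of all read bases. The level in that table, which was proportional to read bases per nt, was 3690 for the plus-strand contig chrM:1037-6939 and 1350 for chrM:10322-16299, rank 5 and 19 of all contigs, whose median level was 0.163. Between them lay 2 plus-strand contigs that were low beside these neighbours, chrM:7012-7577 at 0.477 and chrM:7791-10291 at 0.647, although above 81.1% and 84.0% of all contigs. The first contig, chrM:10-1017, had a level of 54.3, and the single minus-strand contig, chrM:9261-10003, a level of 0.751. Levels along the same small chromosome thus spanned 7736-fold. Whether reads that match several places entered that table was not given in the sources used here, and its coordinates were not joined to the mm10 genes.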

How the data were processed

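RNA-seq tables of 2 libraries of a single group were used as deposited. Per the notes deposited beside the tables, they rest on build mm10 with GENCODE M4; the counting program was not given in the sources used here, and the columns are those that RSEM writes. The deposited expected count divides reads that match several genes among them; deposited TPM and FPKM are relative to effective length and library size. A posterior mean and SD of each count and interval bounds of TPM are also the authors'. The deposited mm9 contig table gives a signal level, a score and read bases, and the deposited mm9 junction table a count of reads and a score; both pool the libraries, and the score has no stated definition and was not used.

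Rounded expected counts were scaled with TMM (edgeR 4.0.16, R 4.3.3) over annotated genes without spike-ins. Ratios and Clopper-Pearson intervals were computed with scipy 1.17.1 and checked on simulated data. Replicate numbers are those in the labels, and no p-value was computed. Copies were aligned to mitochondrial genes on GRCm38 with GENCODE M21 (biopython 1.88; blastn 2.17.0). Alternatives were DESeq2 1.42.0 size factors, total counts of genes or spike-ins, TMM without the 40 genes, posterior means, other count minimums, a 1.5-fold bound, FPKM and log2 of TPM with pseudocounts. Intervals cover counting error only. The members and all lists were chosen with earlier results of these data known. Named beyond the 40 genes were all genes within 10 kb of the copies and, from each list of nuclear partners, the 3 of highest TPM and up to 4 called genes in each direction; markers given as examples were picked freely.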

Additional observations from a re-analysis of the deposited data

Results flagged for a closer look

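Splice junctions were also listed on the mitochondrial chromosome, in the mm9 junction table that no comparison above uses. They numbered 858 and held 2688 reads, 0.00640% of all junction reads. A single read supported 602 of them (70.2%, against 45.8% of all 480876 junctions), 18 had 10 or more reads and 19 lay on the minus strand. Their median span was 218.5 nt, against 1878 nt for all junctions. The most read was chrM:6458-6518, a span of 61 nt with 609 reads, followed by chrM:6451-6517 with 252 and chrM:14428-14538 with 143. The pair of read numbers in each junction's name summed to 667 and 2021, and no label ties either number to a replicate. Mitochondrial genes have no annotated introns, and what gave rise to these reads was not tested.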

How the results depend on the processing

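Of the 18 genes with enough counts, 16 were called higher in replicate 2, against 10.6% of all genes. With the total count 10 were, against 4.40%, and with the spike-ins 13, against 4.88%. With a 1.5-fold bound 17 were, and the share of all genes at that bound was not computed. The median log2 ratio of the 13 mRNAs, 1.54, was 1.03 with the total count, 1.08 with the spike-ins, 1.67 with posterior mean counts and 0.90 on the log2 scale of TPM with a pseudocount of 0.1 or 1. That of the nuclear subunits, 0.82, was 0.30 with the total count and 0.36 with the spike-ins. Single genes lost their call with the total count in 6 cases (log2 ratio 0.65 to 1.01) and with the spike-ins in 3 (mt-Co2 0.88, mt-Nd5 0.79, mt-Nd4l 0.71), and in none with DESeq2 size factors, TMM without the 40 genes, posterior mean counts or pair sums. Pair sums scaled by the total count, added after seeing the data, gave 1.03 to 1.47 and all 7 stayed called. The mRNAs' TPM share, a mean of 11.1%, was 7.24% without mt-Atp8, 7.61% by counts per kb and 15.1% with the 3 copies added. With 1 library left out it ran from 6.51% to 15.7%, the count share of the mt- genes from 3.04% to 7.14% and the share given to the 3 copies from 11.2% to 15.2%. No paired analysis was possible because there is a single group. Depth did not limit the mRNAs; it limits Gm28439, with 3.78 and 10.3 counts.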

Other observations

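More distant copies of mitochondrial genes took almost no counts. A search of the annotated transcripts for matches of at least 85% identity over 100 nt found 14 beyond the chromosome 1 copies, of which 10 were in the deposited tables, with identities of 88.4% to 97.6%. Of these, 8 were at 0 counts in both libraries, among them copies of mt-Nd5, mt-Nd6 and mt-Cytb on chromosome 4. Gm13340, on chromosome 2 and 97.6% identical to mt-Co1, had 25.5 and 96.4 estimated counts, and its neighbour Gm13341, 95.9% identical to mt-Co2, had 36.2 and 91.7. The 10 together held 61.7 and 188 counts, 0.000115% and 0.000327% of all gene counts.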
